A study of Homo sapiens and Mus musculus with 24 samples.

Results

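The genes described here are the drug-metabolizing families of the human genome: the cytochrome P450 (CYP) oxidases and the UDP-glucuronosyltransferases (UGT1A and UGT2), glutathione S-transferases (GST, with the membrane-bound MGST) and sulfotransferases (SULT). Every protein-coding gene whose symbol begins with CYP, UGT1A, UGT2A, UGT2B, GSTA, GSTM, GSTP, GSTT, GSTO, GSTK, MGST or SULT followed by a digit was taken, without CYP51A1. This gave 106 of 58051 human gene identifiers. Genes were taken by name and not by measured value, but the families were chosen with earlier results of these data known. The 106 genes comprise 25 genes of CYP families 1 to 3, 12 of CYP family 4, 19 other CYP genes, 7 UGT1A, 10 UGT2, 17 GST, 3 MGST and 13 SULT genes. UGT1A3, UGT1A5 and GSTT1 were not analysed here.

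RNA was sequenced from 4 lines of Caco-2, a human colorectal adenocarcinoma line with features of enterocytes, to ask how loss of the DNA methyltransferase DNMT3A and return of either of its isoforms alter the transcriptome. WT cells carry unedited DNMT3A. ΔDNMT3A is a line grown from 1 clone after transient CRISPR-Cas9 editing of DNMT3A. The lines labelled DNMT3A1 and DNMT3A2 are ΔDNMT3A cells that received the TY1-tagged long or short isoform under a CMV promoter by piggyBac transposition and were expanded as clones under puromycin, so that both still carry the edited gene. Each edited line therefore stands for 1 clone, and an effect of the genotype and a property of the clone cannot be told apart. All lines were kept in MEM with fetal calf serum. Analysed were 4 libraries each of WT, ΔDNMT3A and DNMT3A2 and 3 of DNMT3A1, whose replicate 3 was not analysed here. No label says that libraries of 1 line came from separate cultures, so the p-values measure the spread between these libraries, which may be technical.

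The libraries held 22104408 to 42161299 fragments counted on genes, and 0.184% to 0.244% of them fell on the 106 genes. A level of 3 counts was taken as the floor of detection, and such floors cover counting error only. DNMT3A itself was at 63.7, 61.99, 67.2 and 65.7 CPM (the count scaled to the normalized library size) in WT and at 22.3, 20.7, 20.6 and 19.3 CPM in ΔDNMT3A. It was at 36.7, 39.1 and 38.4 CPM in DNMT3A1 and at 20.2, 22.3, 23.5 and 21.7 CPM in DNMT3A2. The DNMT3A2 libraries overlapped those of ΔDNMT3A, with a log2 fold change of 0.07 (SE 0.057, adjusted p = 0.272) by edgeR. The gene counts thus do not show the reintroduced isoform there, and these libraries are called DNMT3A2-labelled. At the protein level, the study reported loss of DNMT3A in ΔDNMT3A and return of either isoform, by immunoblot and immunofluorescence. Gene counts do not measure that protein. Of 8 markers of colon epithelium, KRT8, KRT18, EPCAM, CDH1, VIL1 and CDX2 were above 1 CPM in every line, KRT20 was at 1.03, 16.1, 1.82 and 0.744 CPM in WT, ΔDNMT3A, DNMT3A1 and DNMT3A2, and LGALS4 was at 0.529 to 1.05 CPM. Markers of other cell types were not all silent. The 5 fibroblast markers summed to 146.3 to 199.9 CPM over the libraries, with 2 of 5 at 1 CPM or more in every line, namely PDGFRA (135 to 169 CPM on average) and COL1A1 (15.98 to 26.7), while DCN, THY1 and COL1A2 were at or near 0. The 6 leukocyte markers summed to 25.67 to 33.33 CPM, with 2 or 3 of 6 at 1 CPM or more, from CD14, CSF1R and, in ΔDNMT3A, ITGAM, while PTPRC was at or near 0. CSF1R was at 4.85 CPM in WT and 17.7 in ΔDNMT3A. The 4 endothelial markers summed to 3.23 to 10.81 CPM, with 1 or 2 of 4 at 1 CPM or more, from PECAM1 and, in DNMT3A1, VWF, while CDH5 and KDR were at or near 0. The part of other cell types in the values below was not tested.

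CYP enzymes of families 1 to 3 oxidise drugs, carcinogens and other foreign compounds with electrons from the reductase POR, while the other CYP families act mainly on fatty acids, sterols, bile acids, retinoids and vitamin D. UGT, SULT and GST enzymes then attach glucuronic acid, sulfate or glutathione, which makes the products water-soluble and ready for export. The intestinal epithelium carries many of these enzymes and acts on swallowed drugs before the liver does.

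Of the 106 genes, 42 reached a mean of 1 CPM in at least 1 line and 64 did not. By class, the 42 were 8 of 25 genes of CYP families 1 to 3, 3 of 12 of CYP family 4, 5 of 19 other CYP genes, 3 of 7 UGT1A, 3 of 10 UGT2, 10 of 17 GST, 3 of 3 MGST and 7 of 13 SULT genes. Among the 64 low genes, 28 had at most 3 counts in every library and 7 had none. These low genes include the drug oxidases CYP3A4, CYP2C8, CYP2C19, CYP2D6, CYP2E1 and CYP1A2, none of which exceeded a line mean of 0.389 CPM. Fragments that matched several genes or lay on exons of several genes were not counted, which lowers the counts of genes with shared exons or near-identical copies such as UGT1A8, UGT1A9, UGT1A10, SULT1A3, SULT1A4, UGT2A1 and UGT2A2.

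GST genes made up most of this expression. GSTP1, the pi-class transferase that conjugates many electrophiles with glutathione, alone held 41.03% of the summed CPM of the 106 genes in WT and 37.7% of it in ΔDNMT3A, against 36.2% in DNMT3A1 and 57.6% in the DNMT3A2-labelled libraries. Per kilobase of exon not shared with another gene, averaged over the 4 lines, GSTP1 stood at 483 CPM. The alpha-class genes GSTA1 and GSTA2 followed at 168 and 118 CPM per kilobase. GSTO1 and UGT1A6 lay close together at 53.3 and 53.1 CPM per kilobase. The next were UGT2A3 at 20.2, CYP20A1 at 16.1, MGST1 at 12.8, GSTK1 at 12.1 and MGST3 at 9.86 CPM per kilobase. CYP20A1, a P450 of unknown substrate, was the only CYP gene among these 10.

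Summed over each class, the lines differed most in UGT2 and CYP family 4. The 10 UGT2 genes together held 31.4 ± 1.32 CPM (SD, n = 4) in WT and 53.2 ± 3.59 CPM in ΔDNMT3A (n = 4). They held 167 ± 13.2 CPM in DNMT3A1 (n = 3) and 10.97 ± 0.483 CPM in the DNMT3A2-labelled libraries (n = 4). No library of 1 line overlapped those of another in this sum. The UGT1A genes summed to 64.2 ± 2.11 CPM in WT and to 202 ± 5.41, 231 ± 10.7 and 155 ± 5.13 CPM in ΔDNMT3A, DNMT3A1 and the DNMT3A2-labelled libraries. CYP family 4 was highest in ΔDNMT3A, at 33.9 ± 1.01 CPM, against 15.4 ± 1.03 CPM in WT, 5.43 ± 1.02 CPM in DNMT3A1 and 8.63 ± 0.648 CPM in the DNMT3A2-labelled libraries. CYP families 1 to 3 were at 146 ± 0.841 and 148 ± 1.16 CPM in WT and DNMT3A1, and at 97.3 ± 2.66 and 108 ± 2.11 CPM in ΔDNMT3A and the DNMT3A2-labelled libraries. These sums follow the highest genes of each class and were not tested. In bulk RNA, fewer cells that express a gene and less RNA per cell cannot be told apart.

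**Figure D1:**
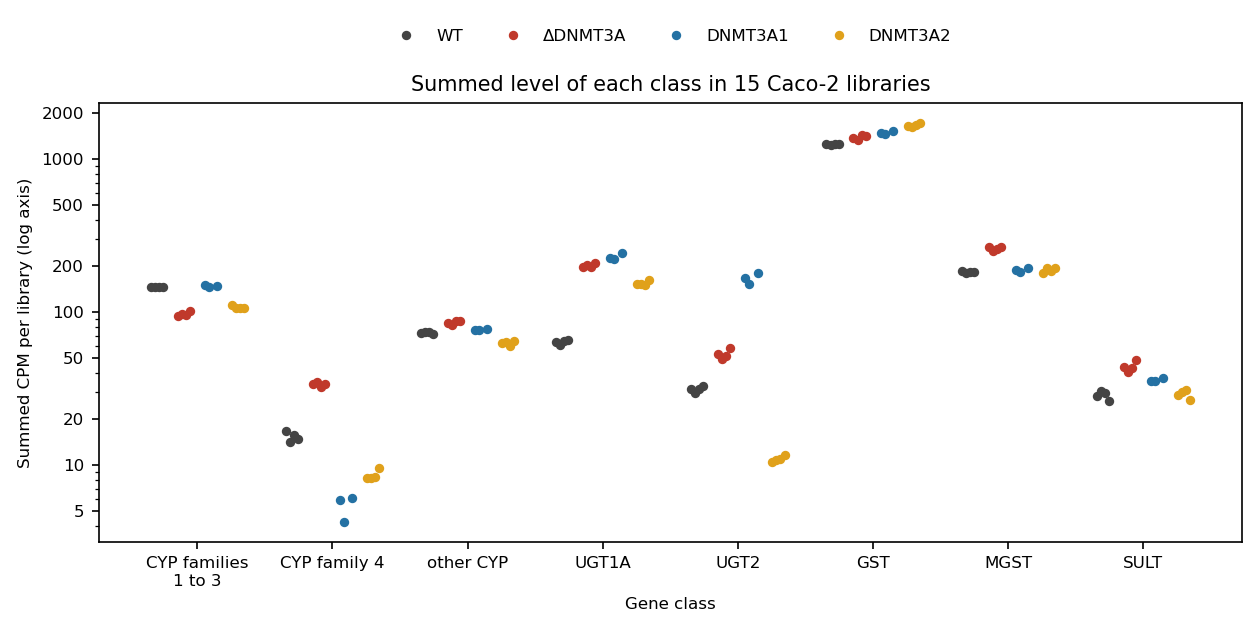
Summed CPM of each of 8 gene classes (log axis) in each of 15 libraries, 1 point per library, coloured by line. UGT2 genes span from 10.5 CPM in the lowest DNMT3A2-labelled library to 179.6 CPM in the highest DNMT3A1 library, while GST genes stay between 1240 and 1729 CPM.

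Each pair of lines was compared by edgeR's quasi-likelihood test, and a Benjamini-Hochberg adjusted p under 0.05 across the genes tested was the threshold. Of the 106 genes, 58 passed the filter on low counts in at least 1 of the 6 comparisons and 48 in none. A gene expressed in 1 line alone can pass this filter through that line, so the counts given here are of the tested genes and not of all 106. Comparisons that share a line share its libraries, so their values are given side by side and are not independent.

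In ΔDNMT3A against WT, 50 of the genes were tested and 39 passed the threshold, beside 62.2% of all genes tested. They split into 26 higher and 13 lower, where 31.2% of all genes were higher and 31% lower. A change of 1 or more on the log2 scale, up or down, was reached by 14 of them, beside 8.51% of all genes. The median size of the log2 fold change was 0.61 over the tested members and 0.24 over all genes. UGT1A (3 higher of 3 tested), SULT (6 higher and 1 lower of 8) and GST (7 higher and 2 lower of 13) moved mostly up, and CYP families 1 to 3 (1 higher and 5 lower of 9) mostly down.

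In DNMT3A1 against ΔDNMT3A, 53 were tested and 31 passed, beside 60.7% of all genes, with 18 higher (30.4% of all genes) and 13 lower (30.3%). A change of 1 or more on the log2 scale was reached by 14 (8.32% of all genes). In DNMT3A2-labelled against ΔDNMT3A libraries, 53 were tested and 37 passed, beside 67.9%, and here 11 were higher (33.8% of all genes) and 26 lower (34.1%). A change of 1 or more on the log2 scale was reached by 19 (11.9% of all genes). Against WT, 42 of 54 passed in DNMT3A1, beside 65.3%, with 29 higher (32.6%) and 13 lower (32.7%), and 38 of 52 in the DNMT3A2-labelled libraries, beside 68.7%, with 18 higher (34.3%) and 20 lower (34.4%). A change of 1 or more on the log2 scale was reached by 21 (12% of all genes) and 19 (11.1%) of these. In the direct comparison of DNMT3A1 with the DNMT3A2-labelled libraries, 37 of 53 passed, beside 68.5%, with 27 higher in DNMT3A1 (34.5%) and 10 lower (33.9%). Of these, 15 differed by 1 or more on the log2 scale (13.1%). The tested members thus passed at shares of 58.5% to 78%, beside 60.7% to 68.7% of all genes. Their median size of change on the log2 scale was 0.46 to 0.81, above the 0.24 to 0.34 of all genes in each of the 6 comparisons. Replicates 1 and 2 and replicates 3 and 4 carry different lane marks, and each lane was also fitted alone. The share of all genes passing within a lane was not computed, so agreement between the lanes was not judged by counts of members. In the second lane DNMT3A1 has 1 library, which was assumed to vary like those of the other line.

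**Figure D2:**
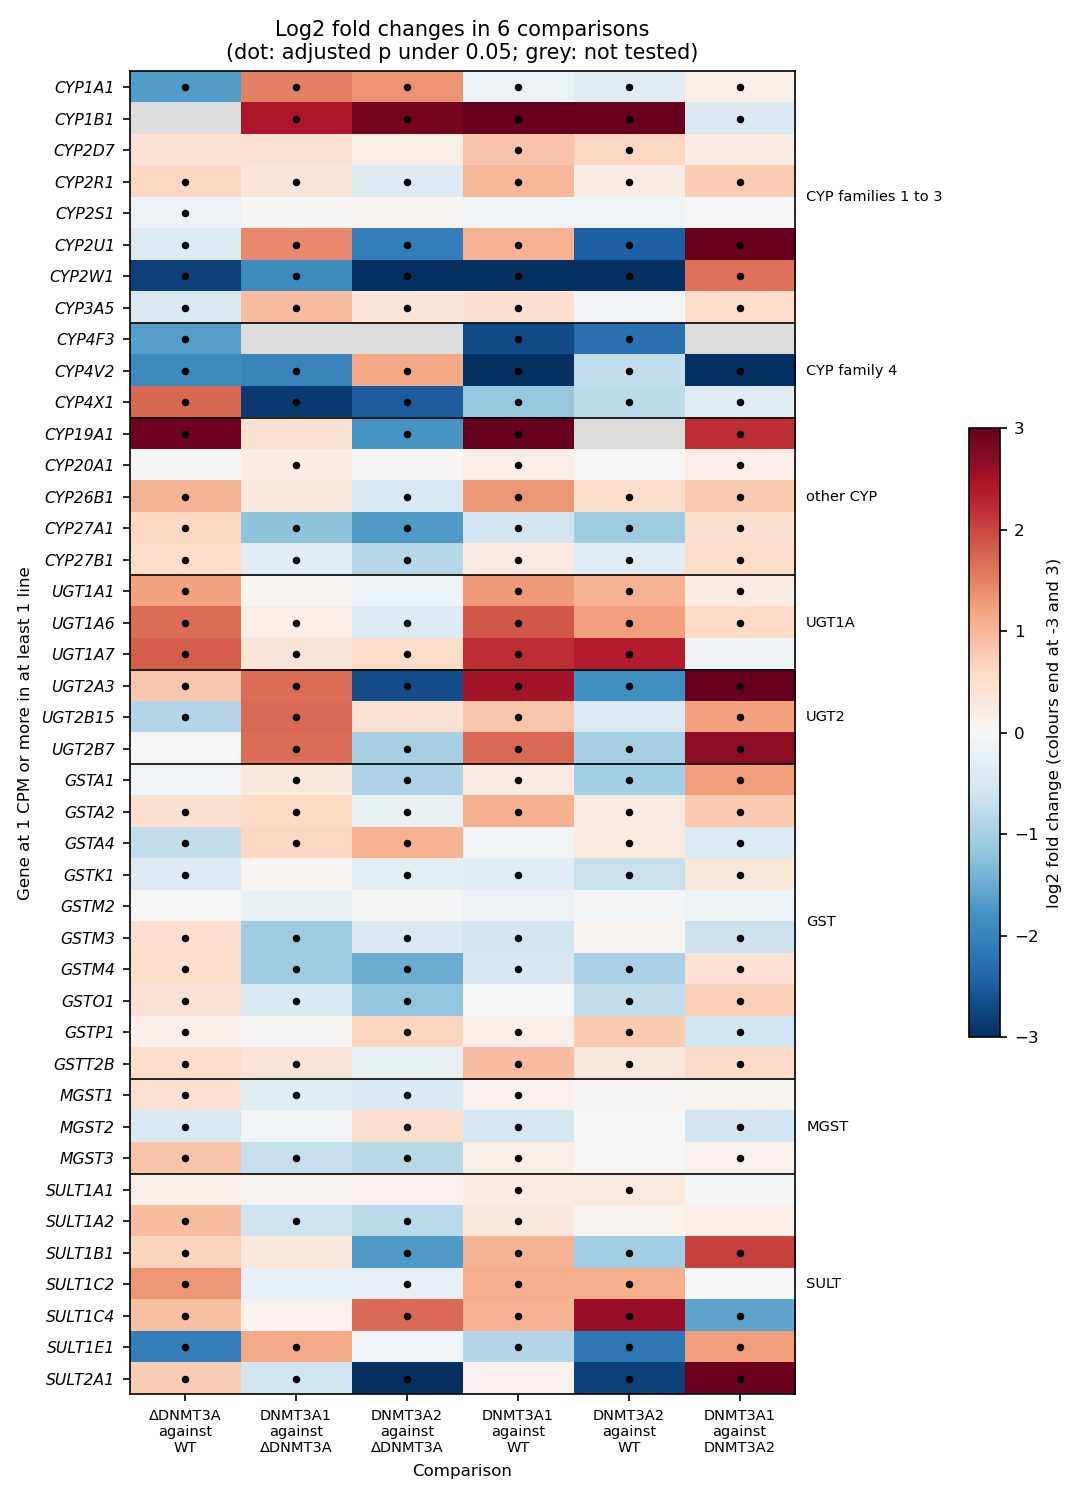
Log2 fold changes (colour) of the 42 genes at 1 CPM or more in at least 1 line, in rows by class, for 6 comparisons in columns. A dot marks an adjusted p under 0.05 by edgeR and grey marks a gene not tested; the colours end at -3 and 3, so that CYP2W1 at -6.37 in the DNMT3A2-labelled libraries against WT is drawn at the end of the scale. The 3 UGT1A rows are red in ΔDNMT3A against WT, and UGT2A3 changes colour between the isoform lines.

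Among CYP families 1 to 3, CYP1A1 and CYP2W1 showed the clearest changes in ΔDNMT3A. CYP1A1 (ENSG00000140465; GRCh38 chr15:74719542-74725610, minus strand) oxidises polycyclic aromatic hydrocarbons and is the classic target of the aryl hydrocarbon receptor. It was at 35.6, 35.9, 32.2 and 34.8 CPM in WT and at 10.6, 10.8, 11.4 and 10.9 CPM in ΔDNMT3A. DNMT3A1 libraries had 31.5, 30.1 and 30.9 CPM and DNMT3A2-labelled libraries 28.2, 29.1, 26.8 and 27.3 CPM. ΔDNMT3A thus lay below every library of the other lines, and both isoform lines lay between it and WT. By edgeR, CYP1A1 had a log2 fold change of -1.68 (SE 0.052, adjusted p = 1.66e-18) in ΔDNMT3A against WT. Against ΔDNMT3A it was 1.5 (SE 0.051, adjusted p = 2.83e-15) in DNMT3A1 and 1.34 (SE 0.054, adjusted p = 3.16e-16) in the DNMT3A2-labelled libraries. CYP1A1 was still lower than in WT in both, with log2 fold changes of -0.17 (SE 0.049) and -0.33 (SE 0.045).

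CYP1B1, which hydroxylates oestradiol and activates procarcinogens, is another target of that receptor and moved differently. It was at 0.149, 0.326, 0.255 and 0.103 CPM in WT and at 0.263, 0.207, 0.372 and 0.465 CPM in ΔDNMT3A, with too few counts to be tested between these lines. In DNMT3A1 it was at 2.17, 1.57 and 1.49 CPM and in the DNMT3A2-labelled libraries at 2.02, 2.81, 2.23 and 2.43 CPM. Both isoform lines lay above all WT and ΔDNMT3A libraries. Against ΔDNMT3A, the log2 fold change of CYP1B1 was 2.44 (SE 0.27, adjusted p = 1.38e-07) in DNMT3A1 and 2.87 (SE 0.22, adjusted p = 6.76e-11) in the DNMT3A2-labelled libraries by edgeR, the highest of the named members in both comparisons.

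CYP2W1 (ENSG00000073067; GRCh38 chr7:983199-989640, plus strand), a P450 found in fetal gut and in colorectal tumours, fell in each edited line. It was at 34.8, 33.8, 35.4 and 33.4 CPM in WT and at 5.21, 4.65, 4.94 and 4.95 CPM in ΔDNMT3A. DNMT3A1 libraries had 1.05, 1.53 and 1.35 CPM and DNMT3A2-labelled libraries 0.356, 0.277, 0.531 and 0.454 CPM, the latter from 6 to 15 counts. The lines did not overlap, and neither isoform line lay closer to WT than ΔDNMT3A. By edgeR, CYP2W1 had a log2 fold change of -2.81 (SE 0.058, adjusted p = 8.47e-22) in ΔDNMT3A against WT. It was -1.92 (SE 0.14) and -3.57 (SE 0.16) in DNMT3A1 and the DNMT3A2-labelled libraries against ΔDNMT3A, and -4.72 (SE 0.088) and -6.37 (SE 0.099) against WT. CYP2W1 had the lowest log2 fold change among the named members in 4 of these 5 comparisons.

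The sequences before the starts of these 2 genes are shown because CpG dinucleotides, the sites that DNMT3A methylates, are spread unevenly among the members. They are taken from the RefSeq promoter table on GRCh38.p14, begin 250 bases before the RefSeq start and end before the annotated exons. CYP2W1 is given for chr7:982931-983180 on the plus strand and CYP1A1 for chr15:74725611-74725778 on the minus strand. Capitals mark CpG.
CYP2W1: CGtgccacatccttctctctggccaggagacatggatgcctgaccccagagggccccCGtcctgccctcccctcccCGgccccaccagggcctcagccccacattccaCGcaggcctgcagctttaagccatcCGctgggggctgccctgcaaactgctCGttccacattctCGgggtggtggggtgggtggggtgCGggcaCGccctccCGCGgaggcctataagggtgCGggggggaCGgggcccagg
CYP1A1: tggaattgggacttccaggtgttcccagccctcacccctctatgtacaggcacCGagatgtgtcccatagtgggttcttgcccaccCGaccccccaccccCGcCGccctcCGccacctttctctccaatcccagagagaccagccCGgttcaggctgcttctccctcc
CYP2W1 holds 13 CpG in 250 bases and CYP1A1 holds 6 in the 168 bases shown and 10 in its full 250. DNA methylation was not analysed here.

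The remaining genes of these families moved in several ways. CYP2U1, which hydroxylates long-chain fatty acids, was at 3.38, 3.77, 2.94 and 3.88 CPM in WT and at 2.39, 2.75, 2.91 and 2.66 CPM in ΔDNMT3A. It was at 7.56, 6.97 and 7.298 CPM in DNMT3A1 and 0.869, 0.461, 0.673 and 0.551 CPM in the DNMT3A2-labelled libraries. The isoform lines thus lay on opposite sides of ΔDNMT3A. Against ΔDNMT3A, the log2 fold change of CYP2U1 was 1.45 (SE 0.10, adjusted p = 2.09e-10) in DNMT3A1 and -2.05 (SE 0.18, adjusted p = 5.84e-10) in the DNMT3A2-labelled libraries, and 3.5 (SE 0.15) between the isoform lines by edgeR. CYP2R1, which hydroxylates vitamin D in the first step of its activation, also split, at 24.5, 24.4, 24.5 and 24.8 CPM in WT, at 37.2, 37.7, 35.5 and 40.8 in ΔDNMT3A, at 47.8, 49.5 and 49.3 in DNMT3A1 and at 29.9, 28.2, 29.2 and 27.9 in the DNMT3A2-labelled libraries. Its log2 fold change was 0.61 (SE 0.046) in ΔDNMT3A against WT and 0.37 (SE 0.049) and -0.40 (SE 0.046) in the isoform lines against ΔDNMT3A. Neighbouring genes moved with it, since the median of its 20 nearest tested genes was 0.42 in DNMT3A1 (17 of 20 higher) and -0.27 in the DNMT3A2-labelled libraries (13 of 20 lower) against ΔDNMT3A. CYP3A5, a drug oxidase of the CYP3A family, fell in ΔDNMT3A from 25.2 ± 0.189 to 18.7 ± 0.573 CPM (SD, n = 4 each), as did 18 of its 20 neighbours. It rose in both isoform lines against ΔDNMT3A, by 0.92 (SE 0.047) in DNMT3A1 and 0.37 (SE 0.051) in the DNMT3A2-labelled libraries on the log2 scale. CYP2S1, whose mean was 21.1 ± 1.43 CPM in WT (SD, n = 4) against 18.96 ± 0.4104 CPM in ΔDNMT3A, passed only in this comparison, with a log2 fold change of -0.17 (SE 0.054, adjusted p = 0.0104) by edgeR. Without WT replicate 3 its adjusted p was 0.0562. CYP2D7, a close copy of CYP2D6, averaged between 0.661 and 1.21 CPM over the lines. It was at 0.538, 0.761, 0.574 and 0.772 CPM in WT and at 1.35, 1.23 and 1.07 CPM in DNMT3A1, a log2 fold change of 0.86. In the DNMT3A2-labelled libraries against WT it was 0.63 (adjusted p = 0.0234) by edgeR, and 0.42 (adjusted p = 0.164) without DNMT3A2 replicate 4.

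**Figure D3:**
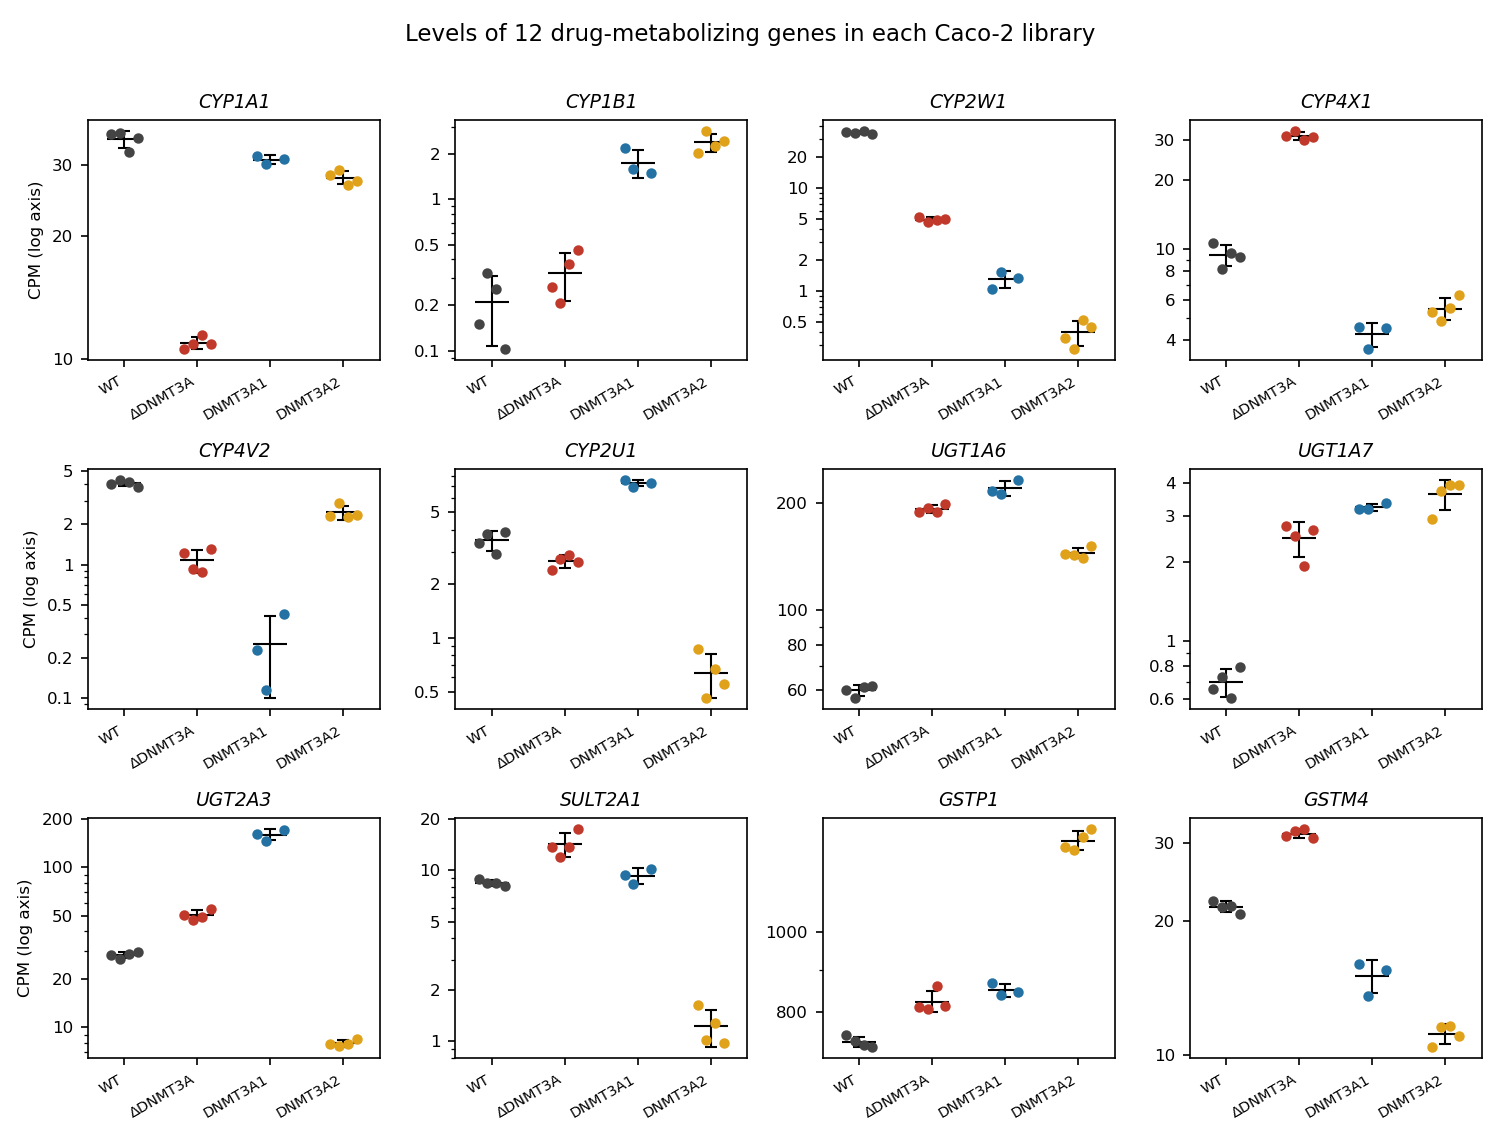
CPM (log axes, a range of its own for each gene) of 12 members in each library of the 4 lines, 1 point per library, with the mean and SD in black. The ΔDNMT3A points of CYP1A1 lie apart from those of the other lines, CYP2W1 steps down from line to line, and UGT2A3 is highest in DNMT3A1 and lowest in the DNMT3A2-labelled libraries.

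In CYP family 4, whose members hydroxylate fatty acids, the expressed genes went in different directions. CYP4X1 (ENSG00000186377; GRCh38 chr1:47023568-47050751, plus strand) was at 10.6, 8.19, 9.67 and 9.26 CPM in WT and at 31.2, 32.8, 30.1 and 30.7 CPM in ΔDNMT3A. It was at 4.57, 3.68 and 4.54 CPM in DNMT3A1 and 5.296, 4.84, 5.56 and 6.32 CPM in the DNMT3A2-labelled libraries. ΔDNMT3A was above, and both isoform lines below, every WT library. By edgeR, CYP4X1 had a log2 fold change of 1.71 (SE 0.062, adjusted p = 3.19e-17) in ΔDNMT3A against WT. Against ΔDNMT3A it was -2.86 (SE 0.070, adjusted p = 2.89e-17) in DNMT3A1 and -2.50 (SE 0.067, adjusted p = 1.71e-19) in the DNMT3A2-labelled libraries. CYP4V2, a fatty acid hydroxylase whose loss causes Bietti crystalline dystrophy, was at 3.97, 4.28, 4.12 and 3.81 CPM in WT, at 1.22, 0.918, 0.879 and 1.296 in ΔDNMT3A, at 0.23, 0.115 and 0.423 in DNMT3A1 and at 2.29, 2.91, 2.27 and 2.37 in the DNMT3A2-labelled libraries. It was therefore lowest in DNMT3A1, and the DNMT3A2-labelled libraries lay between ΔDNMT3A and WT. Against ΔDNMT3A, the log2 fold change of CYP4V2 was -1.99 (SE 0.33, adjusted p = 2.68e-05) in DNMT3A1 by edgeR, which became -2.60 without DNMT3A1 replicate 4. In the DNMT3A2-labelled libraries it was 1.16 (SE 0.17, adjusted p = 1.37e-06). CYP4F3, which inactivates leukotrienes, fell in ΔDNMT3A from 1.06 ± 0.192 to 0.348 ± 0.0716 CPM (SD, n = 4 each), which is -1.64 (SE 0.24) on the log2 scale, and was not tested between the edited lines.

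The 5 other CYP genes above 1 CPM include enzymes of sterol, retinoid and vitamin D metabolism. CYP27A1, the mitochondrial sterol hydroxylase of bile acid synthesis, rose in ΔDNMT3A and fell below WT in both isoform lines. It was at 18.6, 17.7, 19.97 and 17.3 CPM in WT, at 29.9, 25.8, 27.4 and 30.3 in ΔDNMT3A, at 10.97, 11.8 and 13.9 in DNMT3A1 and at 7.71, 8.91, 7.93 and 10.6 in the DNMT3A2-labelled libraries. Its log2 fold change was 0.62 (SE 0.058, adjusted p = 2.05e-09) in ΔDNMT3A against WT, and -1.21 (SE 0.073, adjusted p = 2.34e-11) and -1.69 (SE 0.079, adjusted p = 4.94e-15) in the isoform lines against ΔDNMT3A by edgeR. CYP27B1, which makes the active form of vitamin D, rose from 4.97 ± 0.166 to 7.35 ± 0.503 CPM in ΔDNMT3A (SD, n = 4 each; log2 fold change 0.55, SE 0.079). CYP19A1, the aromatase that makes oestrogens, had 1 to 6 counts per WT library and 23 to 41 per ΔDNMT3A library. In ΔDNMT3A it was at 0.9797, 0.7404, 0.778 and 0.831 CPM and in DNMT3A1 at 1.15, 1.07 and 1.24 CPM, against 0.0299, 0.217, 0.0957 and 0.103 CPM in WT and 0.198, 0.277, 0.3895 and 0.1297 CPM in the DNMT3A2-labelled libraries. The lines thus formed a higher and a lower pair without overlap. At these counts CYP19A1 differed by 2.92 (SE 0.35, adjusted p = 1.04e-07) on the log2 scale between ΔDNMT3A and WT by edgeR, and by 3.37 without WT replicate 2. CYP26B1, which clears retinoic acid, rose from 0.817 ± 0.228 to 1.64 ± 0.315 CPM (SD, n = 4 each; log2 fold change 1.02, SE 0.21). CYP20A1 was at 47.9, 46.9, 54.9 and 48.02 CPM in WT, ΔDNMT3A, DNMT3A1 and the DNMT3A2-labelled libraries, with a log2 fold change of -0.04 (SE 0.036, adjusted p = 0.322) in ΔDNMT3A against WT by edgeR and of 0.23 (SE 0.044) in DNMT3A1 against ΔDNMT3A.

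The 3 UGT1A genes tested in ΔDNMT3A against WT, UGT1A6, UGT1A7 and UGT1A1, rose. The other UGT1A genes were too low for the test there, and not all were higher: UGT1A9 had 5 to 10 counts in the WT libraries and 0 in every ΔDNMT3A library, and UGT1A8 averaged 0.0577 and 0.0282 CPM. The UGT1A genes form 1 locus on chromosome 2 in which each gene has its own first exon and shares the last ones, and fragments on the shared exons were not counted, so the counts rest on 56.02% of the exon bases of UGT1A6, 59.4% of those of UGT1A7 and 50.1% of those of UGT1A1. UGT1A6 (ENSG00000167165; GRCh38 chr2:233691607-233773300, plus strand), which conjugates planar phenols, was at 60, 56.99, 60.97 and 61.4 CPM in WT and at 188, 193, 189 and 198 CPM in ΔDNMT3A. It was at 216, 211 and 231 CPM in DNMT3A1 and 144, 143, 140.5 and 152 CPM in the DNMT3A2-labelled libraries. Every library of the 3 edited lines exceeded every WT library. Against WT, the log2 fold change of UGT1A6 was 1.67 (SE 0.031, adjusted p = 7.34e-23) in ΔDNMT3A, 1.87 (SE 0.036, adjusted p = 1.10e-23) in DNMT3A1 and 1.26 (SE 0.029, adjusted p = 2.29e-25) in the DNMT3A2-labelled libraries by edgeR. Against ΔDNMT3A it was 0.19 (SE 0.034) in DNMT3A1 and -0.41 (SE 0.027) in the DNMT3A2-labelled libraries, and both isoform lines remained above WT.

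UGT1A1, the transferase for bilirubin, and UGT1A7, which acts outside the liver, showed the same rise. UGT1A1 was at 2.84, 3.23, 3.095 and 3.35 CPM in WT, at 6.95, 7.97, 6.66 and 7.71 in ΔDNMT3A, at 8.21, 7.16 and 7.33 in DNMT3A1 and at 6.24, 6.599, 6.41 and 6.81 in the DNMT3A2-labelled libraries. Its log2 fold changes against WT were 1.21 (SE 0.092, adjusted p = 3.72e-11), 1.27 (SE 0.099, adjusted p = 1.98e-11) and 1.04 (SE 0.093, adjusted p = 3.18e-11) in these 3 lines by edgeR. UGT1A7 was at 0.657, 0.725, 0.606 and 0.798 CPM in WT, at 2.75, 2.52, 1.93 and 2.66 in ΔDNMT3A, at 3.19, 3.18 and 3.35 in DNMT3A1 and at 2.92, 3.74, 3.93 and 3.92 in the DNMT3A2-labelled libraries. Against WT its log2 fold changes were 1.81 (SE 0.17), 2.20 (SE 0.17) and 2.36 (SE 0.16). The further log2 fold change of 0.39 (SE 0.14, adjusted p = 0.0194) in DNMT3A1 against ΔDNMT3A by edgeR did not pass without DNMT3A1 replicate 4 (adjusted p = 0.0687) or ΔDNMT3A replicate 3 (adjusted p = 0.0693).

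The UGT2 family holds the member that differed most between the isoform lines. UGT2A3 (ENSG00000135220; GRCh38 chr4:68928463-68951791, minus strand), an intestinal enzyme that conjugates bile acids, was at 28.2, 26.7, 28.8 and 29.6 CPM in WT and at 50.7, 47.1, 49.2 and 54.97 CPM in ΔDNMT3A. It was at 161, 147 and 172 CPM in DNMT3A1 and 7.83, 7.61, 7.83 and 8.52 CPM in the DNMT3A2-labelled libraries. The 4 lines did not overlap, with DNMT3A1 highest and DNMT3A2-labelled lowest. By edgeR, UGT2A3 had a log2 fold change of 0.82 (SE 0.046, adjusted p = 1.53e-13) in ΔDNMT3A against WT. Against ΔDNMT3A it was 1.67 (SE 0.050, adjusted p = 5.02e-16) in DNMT3A1 and -2.67 (SE 0.059, adjusted p = 3.72e-21) in the DNMT3A2-labelled libraries. Between the isoform lines it was 4.33 (SE 0.056, adjusted p = 3.83e-27), the highest of the named members in that comparison.

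The sequence before the start of UGT2A3, on the minus strand at chr4:68951805-68952054 of GRCh38.p14 and from the same RefSeq table, is shown as the contrast to CYP2W1, since it holds no CpG and so no capitals.
UGT2A3: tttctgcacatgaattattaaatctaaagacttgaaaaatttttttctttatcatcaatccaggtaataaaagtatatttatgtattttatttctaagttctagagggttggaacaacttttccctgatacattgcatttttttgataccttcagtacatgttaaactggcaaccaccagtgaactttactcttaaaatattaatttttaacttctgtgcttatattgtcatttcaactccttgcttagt

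UGT2B7, which conjugates morphine and steroids, followed the order of UGT2A3 between the isoform lines, at 1.55, 1.05, 0.861 and 0.952 CPM in WT, at 1.07, 1.07, 1.08 and 1.23 in ΔDNMT3A, at 3.09, 3.48 and 4.11 in DNMT3A1 and at 0.632, 0.5999, 0.567 and 0.454 in the DNMT3A2-labelled libraries. Its log2 fold change was -0.00 (SE 0.20, adjusted p = 0.987) in ΔDNMT3A against WT, and 1.69 (SE 0.16, adjusted p = 1.26e-08) and -0.99 (SE 0.22, adjusted p = 2.71e-04) in the isoform lines against ΔDNMT3A by edgeR. UGT2B15, an androgen-conjugating enzyme, fell in ΔDNMT3A (log2 fold change -0.88, SE 0.24) and rose in DNMT3A1 against ΔDNMT3A (1.69, SE 0.24), from means of 0.733 ± 0.0509, 0.3996 ± 0.0529 and 1.28 ± 0.217 CPM (SD, n = 4, 4 and 3). Levels of these 2 genes rest on few counts, with at most 146 for UGT2B7 and 50 for UGT2B15 in any library.

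All 10 UGT2 genes lie with SULT1B1 and SULT1E1 between positions 68537184 and 69860152 of chromosome 4, where 8 of the 12 were tested in at least 1 comparison. In ΔDNMT3A against WT 6 were tested, with 2 higher and 2 lower, beside 31.2% higher and 31% lower of all genes tested. In DNMT3A1 against ΔDNMT3A 5 of 7 were higher and none lower by edgeR, beside 30.4% and 30.3%. In the DNMT3A2-labelled libraries against ΔDNMT3A 2 of 8 were higher and 4 lower, beside 33.8% and 34.1%. The 2 that were higher there, UGT2B11 and UGT2B4, stayed below 1 CPM in every line. So did UGT2B10, 1 of the 4 that were lower. UGT2B11 was also 1 of the 5 that were higher in DNMT3A1.

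**Figure D4:**
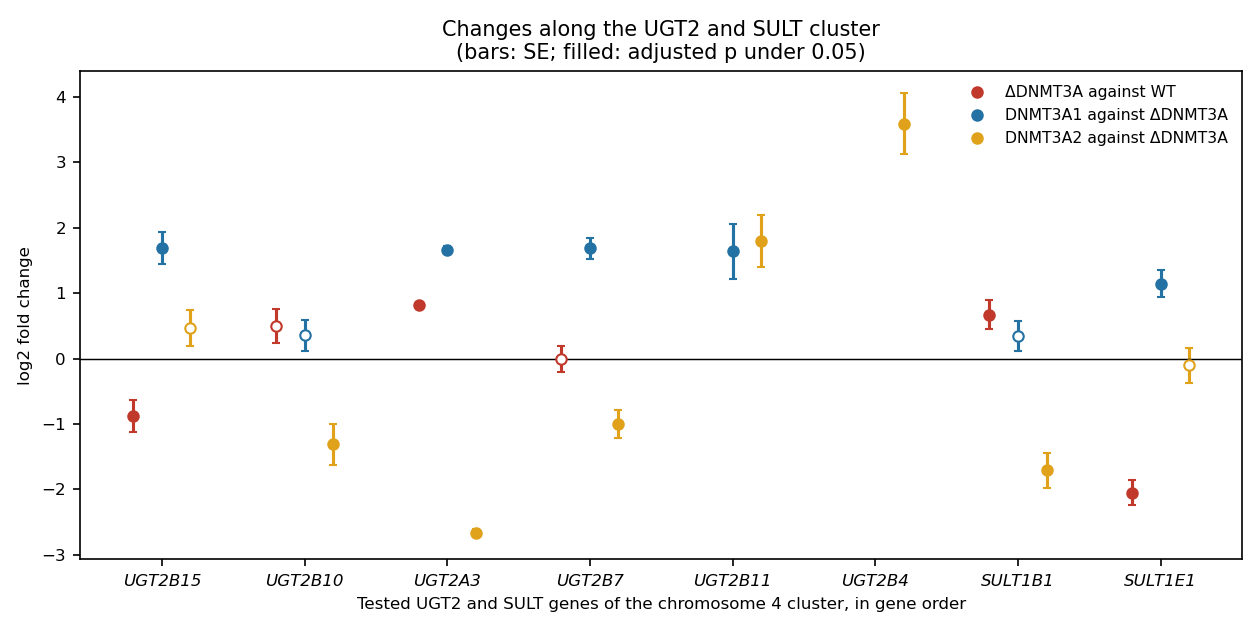
Log2 fold changes (vertical axis) with their SE of the 8 tested UGT2 and SULT genes of the chromosome 4 cluster, in gene order along the horizontal axis, for 3 comparisons in colour. Filled points have an adjusted p under 0.05 by edgeR; UGT2A3 lies at 1.67 in DNMT3A1 and at -2.67 in the DNMT3A2-labelled libraries, and a comparison in which a gene was not tested has no point.

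Markers of differentiated enterocytes are given beside these genes. Their summed level was 1241 to 1283 CPM over the WT libraries, 1478 to 1551 in ΔDNMT3A, 2315 to 2368 in DNMT3A1 and 1108 to 1191 in the DNMT3A2-labelled libraries, for 12 genes of which FABP2 had at most 3 counts in every library. Of 11 tested, 11 were lower in the DNMT3A2-labelled libraries than in ΔDNMT3A by edgeR, beside 34.1% of all genes tested. In DNMT3A1 against the DNMT3A2-labelled libraries 10 were higher, beside 34.5%. In DNMT3A1 against ΔDNMT3A 5 were higher and 5 lower, with a median log2 fold change of 0.03, and in DNMT3A1 against WT 4 were higher and 4 lower. The sucrase-isomaltase gene SI, for example, was at 16.4, 13.4, 55.6 and 2.83 CPM on average in WT, ΔDNMT3A, DNMT3A1 and the DNMT3A2-labelled libraries. The lactase gene LCT had another order, at 9.61, 26.2, 5.18 and 0.774 CPM. The part of the state of differentiation in the UGT2 and SULT values was not tested.

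Of 8 sulfotransferase genes tested in ΔDNMT3A against WT, 6 rose and 1 fell. SULT2A1 (ENSG00000105398; GRCh38 chr19:47870466-47886397, minus strand), which sulfates dehydroepiandrosterone and bile acids, was at 8.93, 8.48, 8.42 and 8.104 CPM in WT and at 13.8, 11.9, 13.7 and 17.4 CPM in ΔDNMT3A. It was at 9.396, 8.27 and 10.2 CPM in DNMT3A1 and 1.62, 1.01, 1.27 and 0.972 CPM in the DNMT3A2-labelled libraries, which lay below all others. By edgeR, SULT2A1 had a log2 fold change of 0.73 (SE 0.088, adjusted p = 1.07e-07) in ΔDNMT3A against WT. Against ΔDNMT3A it was -0.60 (SE 0.10, adjusted p = 3.83e-05) in DNMT3A1 and -3.54 (SE 0.14, adjusted p = 2.88e-16) in the DNMT3A2-labelled libraries. SULT1A2, SULT1B1, SULT1C2 and SULT1C4, which sulfate phenols and related compounds, also rose in ΔDNMT3A, with log2 fold changes of 0.92 (SE 0.067), 0.67 (SE 0.22), 1.33 (SE 0.12) and 0.91 (SE 0.17). SULT1B1 rested on 21 to 63 counts per library in these 2 lines. Its ΔDNMT3A replicate 2, at 0.77 CPM, lay within the WT range of 0.67 to 0.943 CPM. SULT2B1, which sulfates cholesterol and stayed below 1 CPM, was the sixth (0.95, SE 0.31). SULT1A1 did not pass there, at 0.14 (SE 0.082, adjusted p = 0.133) by edgeR. SULT1E1, the oestrogen sulfotransferase, was the gene that fell, at 3.17, 3.59, 3.67 and 2.19 CPM in WT, at 0.645, 0.681, 1.05 and 0.698 in ΔDNMT3A, at 1.51, 1.72 and 1.803 in DNMT3A1 and at 0.395, 1.01, 0.708 and 0.746 in the DNMT3A2-labelled libraries. Its log2 fold change was -2.05 (SE 0.19, adjusted p = 1.29e-09) in ΔDNMT3A against WT and 1.15 (SE 0.21, adjusted p = 8.37e-05) in DNMT3A1 against ΔDNMT3A by edgeR, while the DNMT3A2-labelled libraries overlapped ΔDNMT3A (-0.10, SE 0.26, adjusted p = 0.751).

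SULT1C4, expressed mainly in fetal tissues, set the DNMT3A2-labelled line apart in the other direction. It was at 0.777, 1.196, 1.28 and 0.926 CPM in WT, at 1.91, 2.07, 2.16 and 1.66 in ΔDNMT3A, at 2.27, 2.15 and 2.03 in DNMT3A1 and at 6.84, 6.69, 6.87 and 5.28 in the DNMT3A2-labelled libraries. The log2 fold change of SULT1C4 in these libraries was 1.70 (SE 0.12, adjusted p = 6.58e-12) against ΔDNMT3A and 2.61 (SE 0.14, adjusted p = 2.24e-16) against WT by edgeR. SULT1B1, a neighbour of SULT1E1, fell there from 1.298 ± 0.354 to 0.402 ± 0.0725 CPM (SD, n = 4 each; log2 fold change -1.71, SE 0.27). The sequence before the start of SULT2A1, at chr19:47886398-47886565 on the minus strand of GRCh38.p14, is shown because SULT2A1 fell most among the sulfotransferases of the DNMT3A2-labelled libraries. Capitals mark the 3 CpG in the 168 bases shown, beside 4 in its full 250.
SULT2A1: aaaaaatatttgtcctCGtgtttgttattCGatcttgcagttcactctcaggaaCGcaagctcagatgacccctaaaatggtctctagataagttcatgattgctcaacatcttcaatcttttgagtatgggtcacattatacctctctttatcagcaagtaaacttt

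GSTP1 (ENSG00000084207; GRCh38 chr11:67583595-67586660, plus strand), the most abundant member, was at 749.9, 738, 731 and 727 CPM in WT and at 812, 808, 859.8 and 815 CPM in ΔDNMT3A. It was at 867, 839 and 845 CPM in DNMT3A1 and 1268, 1257, 1302 and 1331 CPM in the DNMT3A2-labelled libraries, which lay above all others. By edgeR, GSTP1 had a log2 fold change of 0.15 (SE 0.026, adjusted p = 1.94e-05) in ΔDNMT3A against WT, 0.05 (SE 0.032, adjusted p = 0.218) in DNMT3A1 against ΔDNMT3A and 0.64 (SE 0.024, adjusted p = 5.53e-17) in the DNMT3A2-labelled libraries against ΔDNMT3A. The alpha-class genes GSTA1 and GSTA2, near-identical copies whose counts are uncertain where fragments match both, are given side by side. GSTA1 was at 184, 179.9, 194 and 194 CPM in WT, at 177, 159.5, 184 and 198 in ΔDNMT3A, at 216, 213 and 243 in DNMT3A1 and at 95.3, 86.3, 96.7 and 98.7 in the DNMT3A2-labelled libraries. It did not pass in ΔDNMT3A against WT (-0.08, SE 0.043, adjusted p = 0.117 by edgeR), except without ΔDNMT3A replicate 4 (-0.13, adjusted p = 0.00724), and was -0.93 (SE 0.047) in the DNMT3A2-labelled libraries against ΔDNMT3A. GSTA2 was at 108, 103, 112 and 108 CPM in WT, at 146, 139.6, 154 and 166 in ΔDNMT3A, at 219.7, 215 and 248 in DNMT3A1 and at 131, 128, 131 and 138 in the DNMT3A2-labelled libraries. Its log2 fold change was 0.48 (SE 0.040) in ΔDNMT3A against WT and -0.20 (SE 0.039) in the DNMT3A2-labelled libraries against ΔDNMT3A. Both genes were higher in DNMT3A1 than in ΔDNMT3A, by 0.32 (SE 0.054) and 0.59 (SE 0.050) on the log2 scale.

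GSTM4, GSTM3 and GSTO1 rose in ΔDNMT3A and fell in both isoform lines. The mu-class gene GSTM4 was at 22.2, 21.5, 21.7 and 20.8 CPM in WT, at 31.02, 31.9, 32.1 and 30.6 in ΔDNMT3A, at 16, 13.6 and 15.5 in DNMT3A1 and at 10.4, 11.5, 11.7 and 11.1 in the DNMT3A2-labelled libraries. It changed by 0.53 (SE 0.044, adjusted p = 1.87e-10) on the log2 scale in ΔDNMT3A against WT, and -1.06 (SE 0.056, adjusted p = 2.93e-12) and -1.50 (SE 0.053, adjusted p = 2.73e-17) in the isoform lines against ΔDNMT3A by edgeR. GSTM3 and GSTO1 had log2 fold changes of 0.51 (SE 0.050) and 0.44 (SE 0.030) in ΔDNMT3A against WT, of -1.07 (SE 0.053) and -0.46 (SE 0.037) in DNMT3A1 and of -0.44 (SE 0.052) and -1.16 (SE 0.032) in the DNMT3A2-labelled libraries against ΔDNMT3A. GSTA4, which detoxifies products of lipid peroxidation, moved the other way, at 21.4 ± 1.02 CPM in WT, at 12.8 ± 0.3395 in ΔDNMT3A, at 19.8 ± 1.01 in DNMT3A1 and at 26.4 ± 1.13 in the DNMT3A2-labelled libraries (SD, n = 4, 4, 3 and 4). It fell by 0.75 on the log2 scale in ΔDNMT3A and was 0.63 (SE 0.056) and 1.04 (SE 0.053) in the isoform lines against ΔDNMT3A. GSTK1, of the mitochondrial and peroxisomal kappa class, fell in ΔDNMT3A (-0.39, SE 0.036), and GSTT2B rose (0.53, SE 0.11). GSTM2 did not pass in any of the 6 comparisons by edgeR, with log2 fold changes of -0.20 to 0.01.

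The 3 MGST genes, which encode glutathione transferases of membranes, passed in ΔDNMT3A against WT and did not pass in the DNMT3A2-labelled libraries against WT. MGST3 was at 66.6, 64.7, 67.8 and 67.7 CPM in WT, at 129, 117, 118 and 119.5 in ΔDNMT3A, at 75.2, 70.4 and 79.4 in DNMT3A1 and at 65.01, 69.3, 66.1 and 73.1 in the DNMT3A2-labelled libraries. It changed by 0.85 (SE 0.034, adjusted p = 1.82e-16) on the log2 scale in ΔDNMT3A against WT, and -0.69 (SE 0.043) and -0.83 (SE 0.037) in the isoform lines against ΔDNMT3A by edgeR. MGST1 rose from 84.1 ± 2.76 to 117 ± 3.51 CPM and MGST2 fell from 32.7 ± 1.63 to 23.9 ± 1.27 CPM in ΔDNMT3A (SD, n = 4 each), with log2 fold changes of 0.47 (SE 0.032) and -0.47 (SE 0.049). In the DNMT3A2-labelled libraries against WT none of the 3 passed by edgeR, with log2 fold changes of 0.04 (SE 0.030, adjusted p = 0.246), 0.02 (SE 0.046, adjusted p = 0.786) and 0.02 (SE 0.034, adjusted p = 0.608). MGST2 in DNMT3A1 stayed below WT, at -0.54 (SE 0.051, adjusted p = 8.77e-10) by edgeR.

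The partners of these enzymes were read from lists of 7 P450 redox genes and 10 genes of cofactor supply. In ΔDNMT3A against WT, 4 of the redox genes were higher and 3 lower by edgeR, beside 31.2% higher and 31% lower of all genes tested. POR, the electron donor of microsomal P450 enzymes, fell from 160.3 ± 5.33 to 117 ± 3.52 CPM (log2 fold change -0.47, SE 0.030), and FDX1, the donor of mitochondrial ones such as CYP27A1, rose from 66.1 ± 1.27 to 111 ± 0.787 CPM (0.74, SE 0.029; SD, n = 4 each). Of the cofactor genes, 6 were higher and 2 lower. PAPSS2, which makes the sulfate donor of SULT enzymes, was at 2.15, 3.299, 2.17 and 2.65 CPM in WT and at 13.9, 13.7, 14.5 and 12.8 CPM in ΔDNMT3A. It was at 8.38, 7.85 and 11.04 CPM in DNMT3A1 and 5.73, 6.41, 5.77 and 6.84 CPM in the DNMT3A2-labelled libraries, all above WT. By edgeR, PAPSS2 had a log2 fold change of 2.42 (SE 0.097, adjusted p = 2.08e-16) in ΔDNMT3A against WT. UGP2, on the path to the UDP-glucuronic acid that UGT enzymes use, rose from 193 ± 2.85 to 354 ± 12.8 CPM (SD, n = 4 each; 0.87, SE 0.029) and stayed above WT in both isoform lines (0.92 and 0.73). A list of 16 further phase I and II enzymes had 8 higher and 6 lower of 14 tested.

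Of 21 regulators of these families, 18 were tested in ΔDNMT3A against WT, with 3 higher and 9 lower by edgeR, beside 31.2% higher and 31% lower of all genes. AHR, the receptor that induces CYP1A1, CYP1B1 and UGT1A6, was at 45.7, 51.1, 49.2 and 49.2 CPM in WT and at 47.5, 49.7, 44.8 and 50.5 CPM in ΔDNMT3A. It was at 63.9, 62.7 and 66.02 CPM in DNMT3A1 and 64.7, 64.97, 63.2 and 62.4 CPM in the DNMT3A2-labelled libraries. By edgeR, AHR had a log2 fold change of -0.03 (SE 0.042, adjusted p = 0.552) in ΔDNMT3A against WT, and 0.42 (SE 0.046, adjusted p = 1.56e-07) and 0.40 (SE 0.037, adjusted p = 1.61e-09) in the isoform lines against ΔDNMT3A. NFE2L2, the activator of GST and NQO1 genes under oxidative stress, had 0.02 (SE 0.037, adjusted p = 0.735), 0.37 (SE 0.042, adjusted p = 1.90e-07) and 0.20 (SE 0.035, adjusted p = 3.38e-05) in the same 3 comparisons. PPARA, which controls CYP4 genes and UGT genes, fell in ΔDNMT3A from 24.7 ± 0.666 to 10.4 ± 0.597 CPM (-1.25, SE 0.057), and FOXA1 from 137 ± 4.39 to 77.1 ± 3.71 CPM (-0.84, SE 0.033; SD, n = 4 each). HNF4A, the main hepatocyte and enterocyte factor for these families, changed by -0.18 (SE 0.032). The xenobiotic receptor genes NR1I2 and NR1I3 stayed below 1 CPM in every line. An mRNA level is no measure of the activity of such a factor.

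The changes were set beside those of neighbouring genes, as the 20 nearest tested genes that are not members, 10 on each side, or fewer near a chromosome end. In ΔDNMT3A against WT, the median log2 fold change of the neighbours of the 41 named members tested ranged from -0.44 to 0.42, while the members ranged from -2.81 for CYP2W1 to 2.92 for CYP19A1. The neighbours' median was -0.13 for CYP2W1, -0.08 for CYP1A1 and 0.14 for UGT1A6. The ends of the range belong to members that moved as their neighbours did. CYP3A5 had -0.44 beside a neighbours' median of -0.44, with 18 of 20 lower and none higher, and GSTT2B had 0.53 beside 0.42, with 14 of 20 higher. In DNMT3A1 against the DNMT3A2-labelled libraries, the neighbours' medians ranged from -0.50 to 0.65. CYP2R1 had 0.76 there beside 0.61, with 18 of 20 neighbours higher. For SULT2A1 the median of its neighbours was -0.20 there and none of the 20 was higher past the threshold, beside its own 2.94.

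Of the 106 genes, 79 had an entry in the RefSeq promoter table. The median was 3 CpG in the 250 bases before the start, beside 11 over all 27305 promoters. Unlike the members, the set of all promoters was not limited to protein-coding genes. At most 2 CpG were found in 48.1% of the members and in 23.6% of all promoters. CYP4V2 and GSTP1 held the most among the members, with 29 and 28. The letters GCGTG, the core bound by AHR with ARNT, stood on either strand in 22.8% of the members and 31.9% of all promoters. TGACNNNGC, the core of the antioxidant response element, stood in 15.2% and 11.03%. CYP2W1 held GCGTG at 2 places and CYP1A1 and UGT1A6 at 1 each within 250 bases, and UGT2A3 and SULT2A1 held neither motif. GCGTG contains a CpG, so its share follows the number of CpG, and a match describes letters and not binding.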

How the data were processed

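Stranded total RNA (TruSeq) of 15 libraries of Caco-2 cells was sequenced as paired ends on a HiSeq3000. The authors trimmed reads with Trim Galore 0.4.4, aligned them to GRCh38 with STAR 2.5.2b and deposited raw fragment counts per gene from featureCounts 1.5.2, by strand and without fragments that matched several genes. Reads carried no molecular identifiers. Mouse libraries of the series were not used here. Symbols and biotypes came from GENCODE 44, which matched 98.1% of 58051 identifiers; 84 identifiers met the symbol rule but were not protein coding.

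Each pair of lines was fitted alone with edgeR 4.0.16 in R 4.3.3 (filterByExpr, TMM library sizes, quasi-likelihood F test, Benjamini-Hochberg adjustment over all genes tested). The method was also run on counts simulated from edgeR's own model. Far fewer genes changed there than passed here, so that run does not cover such widespread change or differences between clones. CPM used TMM sizes over the 15 libraries. Named were the members at 1 CPM or more in at least 1 line, the 3 highest and 3 lowest of each comparison in most detail. Genes below 1 CPM (among them UGT2B4, UGT2B10, UGT2B11, SULT2B1 and the low drug oxidases) were named after their values were seen. The members and the lists of partner, regulator and marker genes were chosen with earlier results of these data known. Alternatives were DESeq2 1.42.0, other size factors, no filter, 1 fit over the 4 lines, a replicate block, replicates 1 and 2 or 3 and 4 alone, and each library left out. Neighbours and clusters used the coordinates deposited with the counts. Promoter sequences came from RefSeq on GRCh38.p14. Some single items are not reported here.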

Additional observations from a re-analysis of the deposited data

Results flagged for a closer look

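Of 126 sets of 4 libraries of 1 line checked over the 42 expressed genes, 8 had 1 library that stood apart from the other 3 by Dixon's criterion, where chance gives about 1 in 20. In ΔDNMT3A these were GSTP1 in replicate 3 (859.8 CPM), MGST2 in replicate 2 (22.03 CPM), SULT1B1 in replicate 2 (0.77 CPM), SULT1E1 in replicate 3 (1.048 CPM) and UGT2B7 in replicate 4 (1.23 CPM). In the DNMT3A2-labelled line they were CYP4V2 in replicate 2 (2.907 CPM), SULT1C4 in replicate 4 (5.283 CPM) and UGT2B15 in replicate 4 (0.7455 CPM). No 1 library held most of these values.

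In 8 genes the isoform lines lay on opposite sides of ΔDNMT3A, each past the threshold by edgeR, and the difference between the lines was tested as its own comparison. On the log2 scale, DNMT3A1 exceeded the DNMT3A2-labelled libraries by 4.331 in UGT2A3, 3.5 in CYP2U1, 2.677 in UGT2B7, 1.249 in GSTA1, 0.7891 in GSTA2, 0.7641 in CYP2R1 and 0.6025 in UGT1A6. CYP4V2 alone of these went the other way, with a log2 fold change of -3.151. DNMT3A mRNA in the DNMT3A2-labelled libraries did not exceed that of ΔDNMT3A, and both lines are single clones, so isoform and clone cannot be told apart here.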

How the results depend on the processing

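In the order ΔDNMT3A against WT, DNMT3A1 against ΔDNMT3A, DNMT3A2-labelled against ΔDNMT3A, DNMT3A1 against WT, DNMT3A2-labelled against WT and DNMT3A1 against DNMT3A2-labelled, 39, 31, 37, 42, 38 and 37 members passed. A required change of 1 or more on the log2 scale, a stricter criterion by construction, left 14, 14, 19, 21, 19 and 15. Leaving out 1 library gave 38 to 42, 29 to 32, 34 to 38, 40 to 44, 33 to 39 and 35 to 38. DESeq2 gave 42, 31, 38, 40, 34 and 34, and no filter on low counts 48, 34, 43, 46, 39 and 37. Other size factors, 1 fit over the 4 lines and each lane alone stayed within 1.5 times the counts first given. APOA4, an enterocyte marker, had a log2 fold change of -0.06, not past the threshold, between DNMT3A1 and the DNMT3A2-labelled libraries. With replicates 3 and 4 alone, where DNMT3A1 has 1 library, it was 0.439. Without that library, DNMT3A1 replicate 4, it was -0.57 (adjusted p = 5.91e-05) by edgeR. The sign of APOA4 thus depended on 1 library, and the cause was not tested. Some values near 0 that passed in neither setting also changed sign, such as LGALS4 (-0.11 to 0.14) and UGT2B7 (-0.00 to 0.21) in ΔDNMT3A against WT without WT replicate 1.

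With the replicate block, 40, 30, 36, 41, 38 and 37 members passed. Same-numbered libraries deviated together little, with correlations of -0.033 to 0.055 in 21 pairs, beside -0.057 to 0.037 in 63 other pairs. Such correlations over many genes cannot exclude a pairing by number, and the lane marks follow the numbers.

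CYP19A1, CYP1B1, CYP4F3, UGT2B15 and CYP2W1 in the DNMT3A2-labelled libraries rest on few counts, and counting error is largest there. Each edited line is 1 clone, DNMT3A1 has 3 libraries, and genes with shared exons or near copies are undercounted.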
